A study of Homo sapiens with 6 samples.

Results

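The genes described here build and gate the primary cilium (PC): the intraflagellar transport (IFT) complexes and their motors, the BBSome and its helpers, factors that carry lipidated and membrane proteins, and the transition zone. They are 49 genes, taken by symbol from a list of these roles, and all 49 were found among the 15953 genes with a log2 CPM (reads scaled to the library total, on the log2 scale). The RNA-seq data come from the bladder cancer cell line EJ, in 3 libraries of cells stably infected with a STIL knockdown lentivirus (shSTIL) and 3 libraries of cells infected with its negative control (shNC). The groups are given here as the sample labels and the methods have them, but headings in the deposited tables read siNC and siSTIL, so whether hairpins or transfected siRNA were used is in doubt. STIL is needed for centriole duplication, and a centriole forms the base of every PC. Whether the infected lines were clones or pools, whether they were starved of serum before RNA was isolated, and whether the 3 libraries of a group came from separate cultures is not given in the sources used here, so p-values measure only the spread between these libraries, which may be technical. The libraries held 16214772 to 16431243 reads in shNC and 16734469 to 16901634 in shSTIL.

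IFT particles travel along the microtubules of the PC. IFT-B, built from a core and a peripheral set of subunits, is linked to kinesin-2 for the way out to the tip, and IFT-A is linked to dynein-2 for the way back. The BBSome is a coat of BBS proteins that rides on these trains and moves membrane proteins out of the PC. The transition zone at its base is a gate made of a MKS module and an NPHP module. PC are built in resting cells and taken apart before division.

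STIL, the targeted gene, had a log2 CPM of 5.98, 6.10 and 6.01 in shNC and 4.05, 4.06 and 4.01 in shSTIL, so 25.2% of the control level was left (adjusted p = 6.1e-12 in limma). Of the markers of other cells that a culture could hold, the 3 measured genes of blood and endothelium summed to 0.436 to 0.613 CPM in shNC and 0.233 to 0.471 CPM in shSTIL. Of 13 urothelial markers, 2 were lower and 2 higher, and their summed level was 1095 to 1155 CPM in shNC and 992 to 1025 CPM in shSTIL. The uroplakin UPK1B and the keratin KRT8 fell by 1.12 and 0.70 on the log2 scale. UPK1B had few reads, 13 to 20 in shNC and 5 to 11 in shSTIL. The keratin KRT7 rose by a log2 fold of 0.49, while KRT18 did not pass (-0.05). Of 5 mesenchymal markers, FN1 and VIM fell by 1.19 and 0.68 on the log2 scale and ZEB2 rose by a log2 fold of 0.74, with a summed level of 1574 to 1615 CPM in shNC and 990 to 1007 CPM in shSTIL. Of 8 motile cilium markers, RSPH4A was lower (log2 fold change -1.14, adjusted p = 0.000533 in limma) and the others did not pass, with a summed level of 14.7 to 16.1 CPM in shNC and 11.1 to 13.2 CPM in shSTIL. The urothelial and epithelial markers KRT5, KRT20, UPK2 and CDH1 had at most 5 reads in any library, so these defining markers of the labelled tissue were at or near the floor. All 11 proliferation markers were lower in shSTIL, led by RRM2, MCM2 and PCNA with log2 fold changes of -2.09, -1.53 and -1.47, and their summed level was 3555 to 3619 CPM in shNC and 1714 to 1786 CPM in shSTIL. The part of these differences in the values below was not tested.

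With an adjusted p under 0.01 in limma, the threshold for DEGs, 19 of the 49 genes (38.8%) were lower in STIL-knockdown cells and 7 (14.3%) were higher, and 23 did not pass. Over all 15953 genes, 23.6% were lower and 23.5% higher. The median log2 fold change of the 49 genes was -0.12, and that of all genes was 0.0052. In 36 of the 49 genes no value of 1 group fell within the other, against 60.3% of all genes. An exact two-sided permutation test gives such genes p = 0.1, the smallest that 3 libraries against 3 allow. Of the 26 DEGs among the 49 genes, 10 changed by a log2 fold of 0.5 or more, as did 3360 of the DEGs over all genes (3759 lower and 3750 higher), and TCTN2 changed by 1 or more. A lower value in bulk RNA can come from fewer cells that express a gene or from less RNA per cell, and these cannot be told apart.

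**Figure D1:**
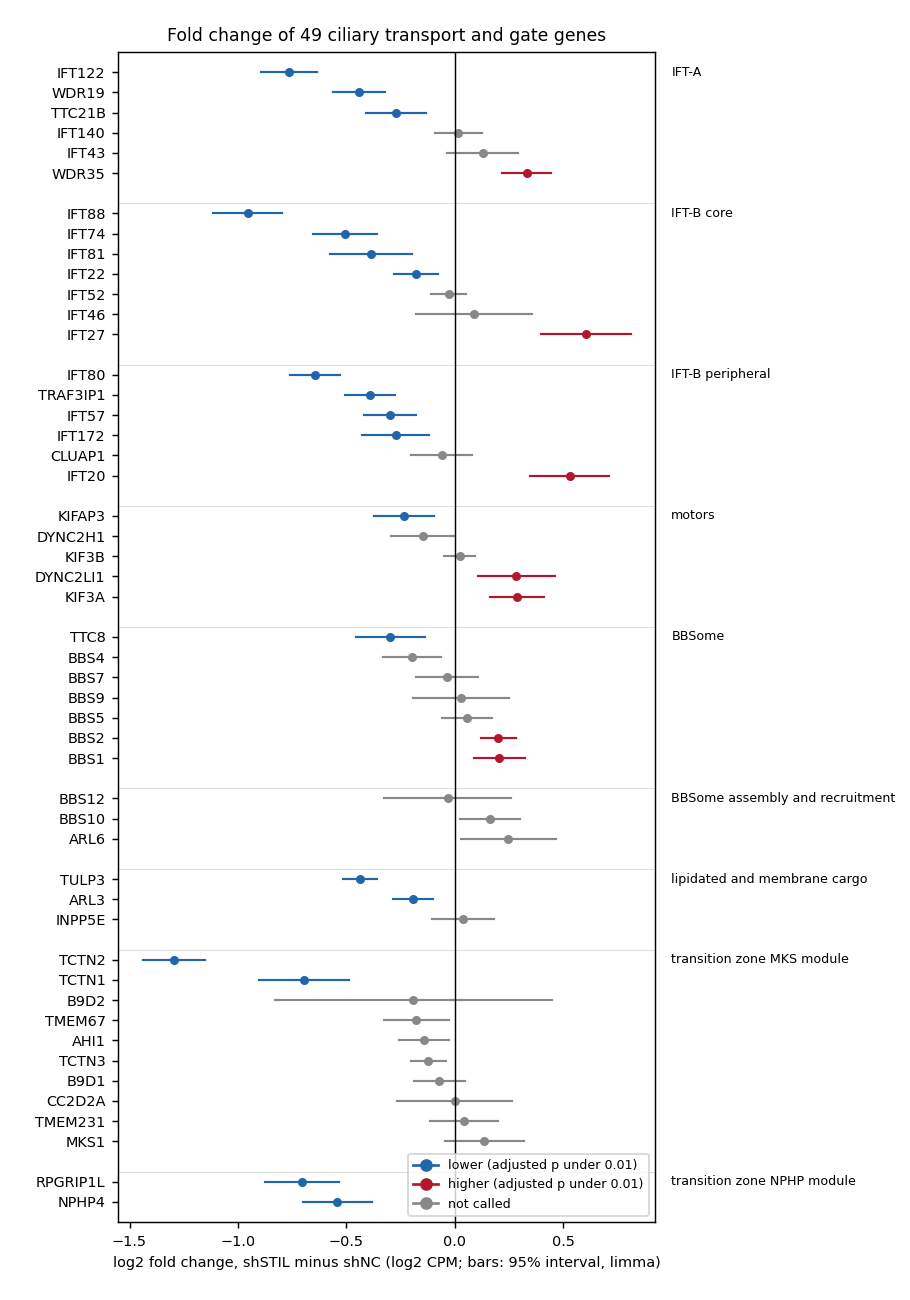
Log2 fold change of each of the 49 genes (shSTIL minus shNC, log2 CPM, horizontal axis) with its 95% interval from limma, grouped by complex; blue marks lower, red higher and grey not called at an adjusted p of 0.01. TCTN2 lies farthest to the left at -1.30 and IFT27 farthest to the right at 0.61, and all 4 called transition zone genes lie left of 0.

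Counted by complex, among the 19 IFT subunits 11 were lower and 3 higher. Of the 12 transition zone genes, 4 were lower and 8 did not pass. The 10 genes of the BBSome and of its assembly and recruitment held 1 lower and 2 higher genes. These are counts, beside 23.6% lower and 23.5% higher over all genes, and the difference between the complexes was not tested.

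TCTN2, a tectonic protein of the MKS module, showed the largest fall of the 49 genes. It lies on chromosome 12 of GRCh38 from 123671113 to 123708403. Its log2 CPM was 4.72, 4.76 and 4.75 in shNC and 3.44, 3.45 and 3.45 in shSTIL. The libraries of each group lay close together and the groups were far apart. The log2 fold change was -1.30 (SE 0.07, adjusted p = 2.32e-09 in limma). It kept 40.7% of its control level, with 422 to 439 reads in shNC and 183 to 186 in shSTIL. TCTN1, its relative in the same module, had 3.53, 3.64 and 3.57 in shNC and 2.81, 2.90 and 2.94 in shSTIL. Every STIL-knockdown library was below every control library for TCTN1, and its log2 fold change was -0.70 (SE 0.10, adjusted p = 2.95e-05 in limma). TCTN3, the remaining tectonic, had 6.11 to 6.13 in shNC and 5.98 to 6.02 in shSTIL. Its values did not overlap either, but its log2 fold change of -0.12 missed the threshold (adjusted p = 0.0123 in limma), which it passed when shSTIL replicate 1 was left out (adjusted p = 0.0065).

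The other 7 genes of the MKS module did not pass the test. AHI1, a scaffold at the base of the PC, gave a log2 fold change of -0.14 (adjusted p = 0.0348 in limma), and TMEM67, a receptor-like membrane protein, one of -0.18 (adjusted p = 0.0457 in limma). The values of B9D1, CC2D2A, TMEM231 and MKS1 overlapped between the groups, with log2 fold changes of -0.07, 0.00, 0.04 and 0.14. B9D2, a partner of B9D1 and MKS1, was the member with the fewest reads. Its log2 CPM was 0.80, 0.73 and 0.53 in shNC and 0.76, -0.29 and 1.00 in shSTIL, on 12 to 32 reads. The shSTIL libraries of B9D2 lay on both sides of the controls, and its 95% interval from -0.83 to 0.45 covers falls as large as that of TCTN1.

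The NPHP module was represented by RPGRIP1L and NPHP4, and both were DEGs. RPGRIP1L, which anchors other transition zone proteins, had a log2 CPM of 4.50, 4.51 and 4.56 in shNC and 3.70, 3.97 and 3.77 in shSTIL, a log2 fold change of -0.70 (SE 0.08, adjusted p = 4.64e-06 in limma). NPHP4 had 4.48, 4.47 and 4.37 in shNC and 3.996, 3.81 and 3.89 in shSTIL, a log2 fold change of -0.54 (SE 0.07, adjusted p = 2.8e-05 in limma). In either gene the lowest control library was above the highest STIL-knockdown library.

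**Figure D2:**
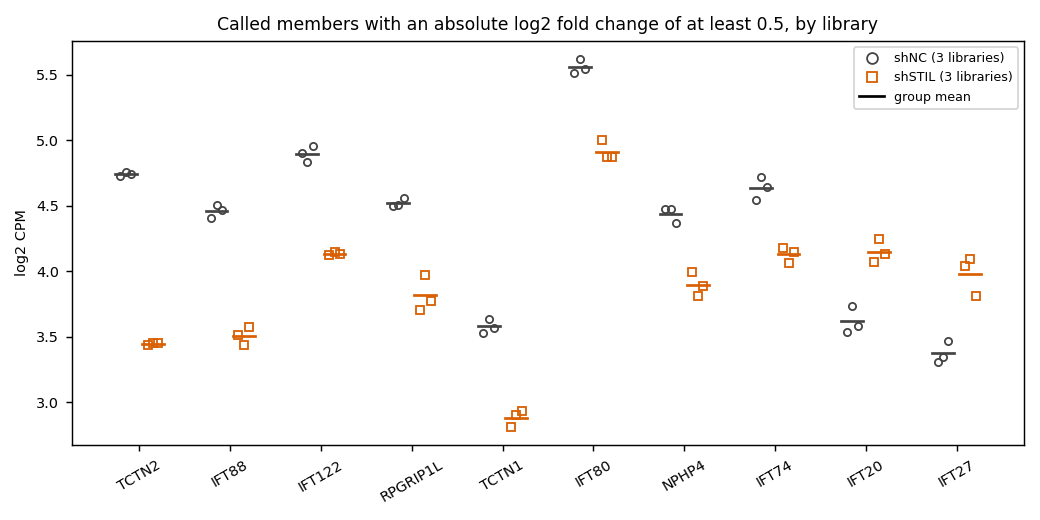
Log2 CPM in each library of the 10 DEGs among the 49 genes that changed by a log2 fold of 0.5 or more; circles are shNC, squares are shSTIL and bars are group means. The circles and squares of each gene do not overlap, and IFT20 and IFT27 are the genes whose squares lie above the circles.

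Of the IFT subunits counted by complex above, IFT88 had the largest fall. It is a core IFT-B subunit needed for PC assembly, and its silencing is a common way to deplete PC. Its position is chr13:20567069-20691437 (GRCh38). Its log2 CPM was 4.41, 4.50 and 4.47 in shNC and 3.51, 3.44 and 3.57 in shSTIL, on 339 to 368 and 184 to 200 reads. The groups were separated by more than any spread within them. The log2 fold change was -0.96 (SE 0.07, adjusted p = 1.26e-07 in limma). IFT88 kept 51.6% of its control level.

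IFT74 and IFT81, which pair with each other in the core and bind tubulin, were lower together. IFT74 had 4.55, 4.72 and 4.64 in shNC and 4.18, 4.07 and 4.14 in shSTIL (log2 fold change -0.51, adjusted p = 2.55e-05 in limma). IFT81 had 4.59, 4.93 and 4.74 in shNC and 4.50, 4.30 and 4.30 in shSTIL (log2 fold change -0.39, adjusted p = 0.00178 in limma). The groups of IFT74 were well apart, whereas shNC replicate 1 and shSTIL replicate 1 of IFT81 were close. IFT22, a small GTPase of the core, changed by a log2 fold of -0.18 (adjusted p = 0.00571 in limma). The calls of IFT81 and IFT22 were lost whichever library was left out, with adjusted p from 0.0137 to 0.0794 and from 0.0145 to 0.0559.

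IFT27, also a small GTPase and the link from IFT-B to BBSome export, moved the other way. Its log2 CPM was 3.31, 3.35 and 3.47 in shNC and 4.04, 4.10 and 3.81 in shSTIL. All 3 STIL-knockdown libraries were above all 3 controls, and the log2 fold change was 0.61 (SE 0.10, adjusted p = 9.9e-05 in limma). Without shNC replicate 1 or 2, or shSTIL replicate 1 or 2, its adjusted p was 0.0105, 0.0103, 0.0129 and 0.0104. IFT52 and IFT46, which hold the core together, had log2 fold changes of -0.03 (95% interval -0.11 to 0.05) and 0.09 (-0.18 to 0.35) and did not pass.

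The core has 4 further subunits outside the 49 genes, and they were also lower. TTC30A and TTC30B, the nearly identical copies of 1 subunit, had log2 fold changes of -1.26 and -0.95 (limma adjusted p = 3.94e-07 and 3.06e-05). Because reads of such copies can be split wrongly between them, their sum was tested too, and it gave a log2 fold change of -1.16 (adjusted p = 6.21e-08 in limma). HSPB11, the partner of IFT27, fell by 0.89 on the log2 scale (adjusted p = 2.68e-06 in limma), and TTC26 fell by 0.70 (adjusted p = 2.96e-07 in limma). HSPB11 and TTC26 are named after their values were seen. With these 4 genes, 8 of the 11 core genes were lower (72.7%, against 23.6% of all genes) and 1 was higher (9.09%, against 23.5%).

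**Figure D3:**
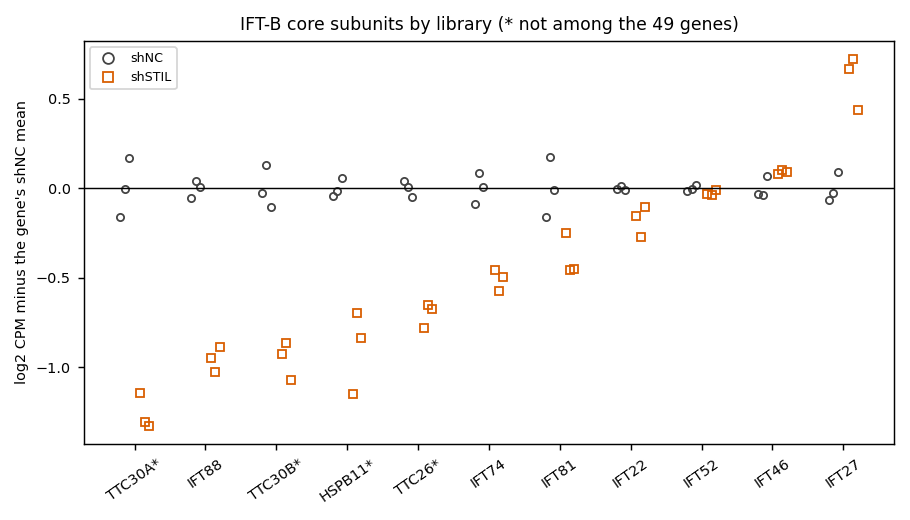
Log2 CPM of each IFT-B core gene in each library minus the mean of that gene in shNC (vertical axis, log2), with shNC as circles and shSTIL as squares; asterisks mark the 4 genes outside the 49. The squares lie below the circles from TTC30A to IFT22, meet them at IFT52, and lie above them for IFT46, which was not called, and for IFT27.

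In the peripheral IFT-B set, 4 of 6 genes were lower (66.7%, against 23.6% of all genes) and 1 was higher (16.7%, against 23.5%). IFT80 had a log2 CPM of 5.52, 5.62 and 5.54 in shNC and 4.999, 4.87 and 4.87 in shSTIL, a log2 fold change of -0.65 (SE 0.05, adjusted p = 2.41e-07 in limma). The groups of IFT80 were well apart, but 51.4% of its exon bases are shared with annotated neighbours. The neighbours are AC079594.2 on the same strand and SMC4 on the opposite strand, the latter with a log2 fold change of -0.16. TRAF3IP1, also known as IFT54, had 5.11, 5.15 and 5.04 in shNC and 4.69, 4.73 and 4.70 in shSTIL (log2 fold change -0.39, adjusted p = 2.76e-05 in limma). IFT57, its neighbour in the particle, had 5.54, 5.59 and 5.54 in shNC and 5.14, 5.32 and 5.31 in shSTIL (log2 fold change -0.30, adjusted p = 0.00037 in limma). Neither gene had overlapping groups. IFT172, the subunit for turnaround at the tip, had -0.27 as its log2 fold change (adjusted p = 0.00513 in limma), and CLUAP1 one of -0.06 (adjusted p = 0.475 in limma).

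IFT20, the subunit that also sits at the Golgi and sorts membrane proteins to the PC, was the higher gene of the peripheral set. It had 3.53, 3.74 and 3.58 in shNC and 4.07, 4.25 and 4.13 in shSTIL. Every STIL-knockdown library was above every control, and the log2 fold change was 0.53 (SE 0.08, adjusted p = 0.000111 in limma). IFT20 shares 33.3% of its exon bases with TMEM97 on the opposite strand, which had a log2 fold change of -1.07. Whether the counting used strand is not given in the sources used here. IFT57 lost its call without each of the 3 shNC libraries (adjusted p = 0.0182, 0.0208 and 0.0174) and without shSTIL replicate 2 or 3 (0.0109 and 0.0149), IFT20 without shSTIL replicate 3 (0.0111), and IFT172 whichever library was left out (0.0257 to 0.0662).

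IFT-A held 3 lower genes (50%, against 23.6% of all genes) and 1 higher gene (16.7%, against 23.5%) among 6. IFT122, a core subunit, lies on chromosome 3 of GRCh38 from 129440036 to 129520507. It had a log2 CPM of 4.90, 4.84 and 4.95 in shNC and 4.13, 4.15 and 4.13 in shSTIL. The STIL-knockdown libraries of IFT122 lay very close to each other, below all controls, and the log2 fold change was -0.76 (SE 0.06, adjusted p = 1.42e-07 in limma). WDR19, also known as IFT144, had 5.19, 5.31 and 5.32 in shNC and 4.89, 4.78 and 4.83 in shSTIL (log2 fold change -0.44, adjusted p = 1.33e-05 in limma). TTC21B, a peripheral subunit, had 5.03, 5.22 and 5.20 in shNC and 4.97, 4.81 and 4.86 in shSTIL (log2 fold change -0.27, adjusted p = 0.00251 in limma). For TTC21B the lowest control and the highest STIL-knockdown library were close.

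WDR35, also known as IFT121 and a neighbour of IFT122 in IFT-A, was higher. It had 5.33, 5.51 and 5.52 in shNC and 5.76, 5.79 and 5.80 in shSTIL, with no overlap. The log2 fold change was 0.33 (SE 0.05, adjusted p = 0.000103 in limma), and without shSTIL replicate 1, 2 or 3 the adjusted p was 0.0131, 0.015 and 0.0176. IFT140 and IFT43 had log2 fold changes of 0.02 (95% interval -0.09 to 0.13) and 0.13 (-0.04 to 0.29). TTC21B lost its call without each library except shNC replicate 1, with adjusted p up to 0.0628.

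The motors did not move in 1 direction. KIF3A and KIF3B are the motor chains of kinesin-2 and KIFAP3 is the chain that ties them to cargo. KIF3A had 5.15, 5.36 and 5.23 in shNC and 5.58, 5.54 and 5.47 in shSTIL (log2 fold change 0.29, adjusted p = 0.000767 in limma). KIF3B had 7.29, 7.31 and 7.26 in shNC and 7.35, 7.28 and 7.30 in shSTIL. The KIF3A groups did not overlap and the KIF3B groups did, with a log2 fold change of 0.02 for KIF3B (95% interval -0.05 to 0.10). KIFAP3 had 4.49, 4.41 and 4.49 in shNC and 4.22, 4.28 and 4.20 in shSTIL (log2 fold change -0.23, adjusted p = 0.00666 in limma).

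Of the dynein-2 chains, DYNC2LI1, the light intermediate chain, had 3.86, 3.94 and 3.92 in shNC and 4.35, 4.15 and 4.07 in shSTIL (log2 fold change 0.29, adjusted p = 0.0091 in limma). DYNC2H1, the heavy chain and the motor proper, had 5.23 to 5.48 in shNC and 5.11 to 5.28 in shSTIL, which overlap (log2 fold change -0.15, adjusted p = 0.083 in limma). Among the motors, DYNC2LI1 lost its call whichever library was left out (adjusted p = 0.021 to 0.0728), KIF3A without each library except shNC replicate 2 (up to 0.0378), and KIFAP3 likewise (up to 0.0251), while the log2 fold changes stayed at 0.21 to 0.34, 0.24 to 0.34 and -0.26 to -0.22.

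The BBSome changed little. Its 7 genes had log2 fold changes from -0.30 to 0.21. TTC8, also known as BBS8, had 4.36, 4.36 and 4.25 in shNC and 3.94, 4.11 and 4.03 in shSTIL (log2 fold change -0.30, adjusted p = 0.00342 in limma). BBS2 had 6.31, 6.37 and 6.37 in shNC and 6.59, 6.52 and 6.55 in shSTIL (log2 fold change 0.20, adjusted p = 0.000382 in limma). BBS1, which binds ARL6, had 4.84, 4.73 and 4.83 in shNC and 5.004, 5.04 and 4.98 in shSTIL (log2 fold change 0.21, adjusted p = 0.00525 in limma). The groups of these 3 genes did not overlap, but 96.7% of the exon bases of BBS1 are shared with annotated neighbours. The neighbours are AP002748.4 on the same strand and ZDHHC24 on the opposite strand, the latter with a log2 fold change of -0.51. The share of each neighbour was not separated. TTC8 and BBS1 lost their calls whichever library was left out (adjusted p = 0.0102 to 0.033 and 0.0129 to 0.0295) and BBS2 without shSTIL replicate 3 (0.0119).

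BBS4, BBS7, BBS9 and BBS5 did not pass, with log2 fold changes of -0.20, -0.04, 0.03 and 0.06. BBS5 shares 28.7% of its exon bases with AC093899.2 on the same strand. The adjusted p of BBS4 was 0.0152 in limma and 0.00685 in edgeR. BBS10 and BBS12, chaperonin-like proteins that assemble the BBSome, and ARL6, the GTPase that recruits it to membranes, did not pass the test either. Their log2 fold changes were 0.16, -0.03 and 0.25 (limma adjusted p = 0.0442, 0.859 and 0.0539), and the groups of BBS10 and ARL6 did not overlap.

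TULP3, which couples membrane proteins to IFT-A for entry into the PC, had 6.80, 6.75 and 6.82 in shNC and 6.35, 6.33 and 6.38 in shSTIL. Its groups were far apart, with a log2 fold change of -0.44 (SE 0.04, adjusted p = 2.08e-07 in limma) on 1383 to 1802 reads. The annotated RHNO1 gene overlaps TULP3 on the same strand with a log2 fold change of 0.18, but shares 0% of the exon bases of the longest TULP3 transcript. ARL3, the GTPase that releases lipidated cargo inside the PC, had 5.94, 5.96 and 6.04 in shNC and 5.76, 5.83 and 5.77 in shSTIL (log2 fold change -0.19, adjusted p = 0.00188 in limma), a call lost whichever library was left out (0.0109 to 0.0304). INPP5E, a lipid phosphatase brought into the PC by ARL3, had 5.27 to 5.49 in shNC and 5.30 to 5.50 in shSTIL, which overlap.

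Partners in a complex were then compared within each library, as the log2 ratio of their CPM. The groups did not overlap for 10 of 12 pairs (exact two-sided permutation test, p = 0.1, adjusted p = 0.12 over the 12 pairs). The 12 pairs were chosen after the values were seen, so these p-values only describe the separation and do not test it. The ratio of TCTN2 to TCTN3 was -1.39, -1.35 and -1.38 in shNC and -2.59, -2.53 and -2.52 in shSTIL. That of IFT122 to WDR35 was -0.43, -0.67 and -0.56 in shNC and -1.64, -1.64 and -1.67 in shSTIL. IFT88 to IFT52 was -1.63, -1.55 and -1.61 in shNC and -2.51, -2.58 and -2.47 in shSTIL. In each of these pairs the first gene had lost ground to the second by a log2 ratio of -0.93 to -1.17. The log2 ratio of HSPB11 to IFT27, which form a pair within IFT-B, changed most. It was 1.59 to 1.65 in shNC and -0.19 to 0.35 in shSTIL, a change of -1.50. IFT74 and IFT81 stayed close, with -0.21 to -0.05 in shNC and -0.32 to -0.16 in shSTIL, which overlap (exact two-sided permutation test, p = 0.2).

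**Figure D4:**
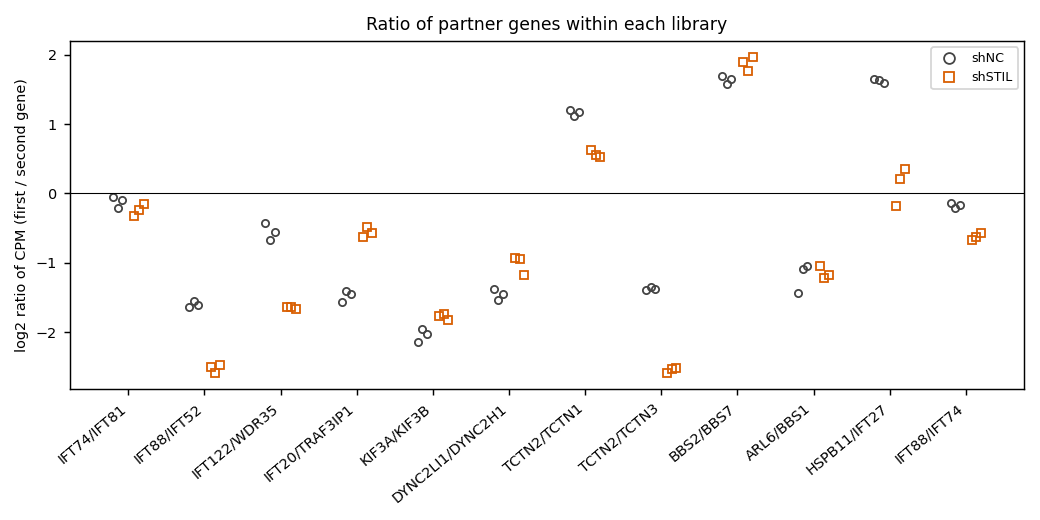
Log2 ratio of the CPM of the first to that of the second gene (vertical axis) in each library for 12 pairs of partner genes, with shNC as circles and shSTIL as squares. The groups overlap for IFT74/IFT81 and ARL6/BBS1, and the HSPB11/IFT27 ratio moves farthest, from 1.59 or more to 0.35 or less.

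Levels were compared between genes only per length, as CPM per kilobase of the longest coding transcript (mean ± SD, n = 3). In shNC the most abundant were IFT52 with 37.8 ± 0.46, TULP3 with 35.9 ± 0.95, BBS2 with 27.6 ± 0.65, IFT22 with 26.3 ± 0.18, KIF3B with 25.6 ± 0.46 and TCTN3 with 25.3 ± 0.18 CPM per kilobase. In this order KIF3B and TCTN3 lay within these SDs of each other. The lowest were CC2D2A with 1.197 ± 0.11, B9D2 with 1.45 ± 0.15 and BBS12 with 1.61 ± 0.22 CPM per kilobase. In the MKS module, TCTN2 stood at 9.15 ± 0.11 in shNC, above MKS1 with 8.17 ± 0.36, and at 3.70 ± 0.03 in shSTIL, below MKS1 with 9.02 ± 1.11. Within IFT-A, WDR35 was at 6.28 ± 0.44 and IFT122 at 6.73 ± 0.27 in shNC, within the spread of each other, and at 7.90 ± 0.10 and 3.95 ± 0.03 CPM per kilobase in shSTIL. Which transcripts EJ cells use was not tested, and the length divides every level.

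**Figure D5:**
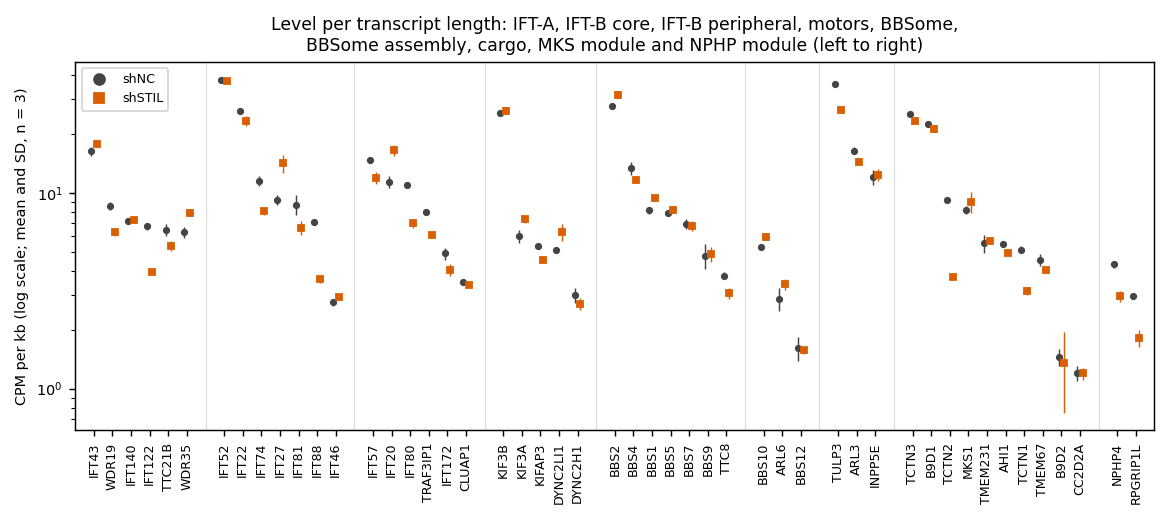
CPM per kilobase of the longest coding transcript (log scale, mean and SD of 3 libraries) of the 49 genes, ordered within each complex by their level in shNC; circles are shNC and squares are shSTIL. IFT52 and TULP3 lie highest, CC2D2A and B9D2 lowest, and TCTN2 shows the widest gap between the groups.

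Other genes of the same structures were counted from lists drawn up by role. Of 14 other IFT subunits and motor chains, 8 were lower (57.1%, against 23.6% of all genes) and 2 higher (14.3%, against 23.5%). The median log2 fold change was -0.20. The lower genes include TTC30A, TTC30B, HSPB11 and TTC26, which were already counted with the core above. DYNLT2B, a light chain of dynein-2, was the most increased, with a log2 CPM of 1.45, 1.22 and 1.79 in shNC and 2.63, 2.86 and 2.71 in shSTIL (log2 fold change 1.25, adjusted p = 2.32e-05 in limma). Of 11 other BBSome genes and regulators, 7 were lower (63.6%, against 23.6% of all genes) and 1, MKKS, was higher (9.09%, against 23.5%). Of the lower genes, 6 are subunits of the general chaperonin that folds tubulin and actin, led by CCT3 and TCP1, which fell by 0.77 and 0.46 on the log2 scale. BBIP1, the BBSome subunit of this list, did not pass (log2 fold change -0.08). The remaining lower gene, RABL2B, which fell by 0.37 on that scale, is a GTPase that releases IFT trains at the base. RABL2A of the same list did not pass (log2 fold change -0.24, adjusted p = 0.071 in limma). RABL2A and RABL2B both had fractional reads, and their sum was not tested.

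The further transition zone genes did not share the direction of TCTN2. Of 18, 4 were lower (22.2%, near the 23.6% of all genes) and 7 higher (38.9%, against 23.5%), with a median log2 fold change of 0.12. TMEM216, a membrane protein of the MKS module, had a log2 CPM of 1.55, 1.43 and 1.71 in shNC and 2.59, 2.69 and 2.45 in shSTIL (log2 fold change 1.02, adjusted p = 4.79e-05 in limma). TMEM138, its neighbour in the genome and partner in transport, had 4.01, 4.03 and 3.98 in shNC and 4.51, 4.46 and 4.59 in shSTIL (log2 fold change 0.51, adjusted p = 1.66e-05 in limma). ANKS6, of the inversin compartment just above the gate, rose by a log2 fold of 0.60 (adjusted p = 4.08e-07 in limma). All 3 genes had no overlap between the groups.

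Of 15 ciliary GTPases and cargo factors, 3 were lower (20%, near the 23.6% of all genes) and 7 higher (46.7%, against 23.5%). ARL2BP, an ARL3 and ARL2 binding protein, and MOK, a kinase of the PC, rose by log2 folds of 0.67 and 0.63, and RAB8A, a GTPase for membrane delivery to the PC, fell by 0.62 on the log2 scale. Of 15 distal appendage and basal body genes, 6 were lower (40%, against 23.6% of all genes) and 4 higher (26.7%, near the 23.5%). CEP131, a satellite protein, and CCP110, the cap that keeps a centriole from growing a PC, fell by 0.93 and 0.71 on the log2 scale, and TTBK2, the kinase that removes this cap, rose by a log2 fold of 0.73 (limma adjusted p = 7.87e-09, 3.58e-08 and 1.04e-08).

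Promoters were compared because many PC genes carry an X-box, the site of RFX transcription factors, which is a pair of arms turned towards each other. RefSeq promoters (GRCh38.p14, 250 bases before to 50 after a start) matched 44 of the 49 genes, without WDR35, IFT22, BBS9, TCTN2 and TMEM67. A single X-box arm, GTTGCC on either strand, was found in the promoters of 20 of the 44 genes (45.5%) and of 16.7% of the 12621 genes with a promoter. Both arms, GTTNCCNNGGNAAC, were found in ARL6 (0.737% of all genes). With 1 base between the arms, GTTNCCNGGNAAC, they were found in TCTN1 and TCTN3 (0.222%), and with 3 bases, GTTNCCNNNGGNAAC, in IFT122 (0.0872%). The single arm overlaps the paired forms. These 4 promoters are shown because they hold both arms, and that of IFT88 because it is the most decreased IFT gene among the 49. Capitals mark the paired arms or, in IFT88, the single arm, and the position is that of the first capital relative to the annotated start.
IFT122 (chr3:129439974-129440273, plus strand, position -12): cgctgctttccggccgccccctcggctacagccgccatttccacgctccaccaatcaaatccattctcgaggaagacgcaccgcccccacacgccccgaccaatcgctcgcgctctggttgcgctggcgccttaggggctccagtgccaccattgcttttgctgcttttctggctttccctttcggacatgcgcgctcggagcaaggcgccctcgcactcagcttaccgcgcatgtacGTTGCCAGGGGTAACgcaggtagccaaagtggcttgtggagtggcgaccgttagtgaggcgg
TCTN1 (chr12:110613879-110614178, plus strand, position 0): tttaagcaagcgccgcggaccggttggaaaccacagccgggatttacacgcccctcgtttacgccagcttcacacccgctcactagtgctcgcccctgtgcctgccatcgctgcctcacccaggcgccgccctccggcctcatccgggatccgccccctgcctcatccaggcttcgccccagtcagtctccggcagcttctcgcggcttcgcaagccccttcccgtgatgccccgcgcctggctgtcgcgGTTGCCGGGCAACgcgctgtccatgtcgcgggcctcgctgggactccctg
TCTN3 (chr10:95693878-95694177, minus strand, position -215): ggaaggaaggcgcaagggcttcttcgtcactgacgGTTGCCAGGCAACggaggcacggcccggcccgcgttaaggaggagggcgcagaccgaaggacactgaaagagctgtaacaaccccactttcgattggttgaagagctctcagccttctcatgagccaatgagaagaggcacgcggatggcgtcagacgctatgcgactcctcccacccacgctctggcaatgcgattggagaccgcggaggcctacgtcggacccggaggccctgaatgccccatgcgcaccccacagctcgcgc
ARL6 (chr3:97764508-97764807, plus strand, position -24): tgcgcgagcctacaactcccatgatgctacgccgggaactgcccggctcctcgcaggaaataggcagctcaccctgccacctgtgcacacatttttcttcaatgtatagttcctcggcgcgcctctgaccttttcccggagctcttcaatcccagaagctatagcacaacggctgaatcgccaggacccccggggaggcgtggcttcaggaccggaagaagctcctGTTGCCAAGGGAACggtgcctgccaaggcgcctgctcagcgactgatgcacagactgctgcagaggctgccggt
IFT88 (chr13:20566907-20567206, plus strand, position 16): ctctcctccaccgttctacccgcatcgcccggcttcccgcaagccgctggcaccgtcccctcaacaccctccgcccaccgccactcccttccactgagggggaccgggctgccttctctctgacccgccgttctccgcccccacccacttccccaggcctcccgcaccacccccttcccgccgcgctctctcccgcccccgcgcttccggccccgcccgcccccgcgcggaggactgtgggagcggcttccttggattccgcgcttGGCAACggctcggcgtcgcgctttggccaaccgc

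The arm was present among genes of every call. It was found in 7 of 17 lower genes, 3 of 6 higher genes and 10 of 21 genes that did not pass. The median log2 fold change was -0.09 in the 20 genes with the arm and -0.11 in the 24 without it. Among the genes shown, IFT122 and TCTN1 were lower, while TCTN3 and ARL6 did not pass. Motifs of cell cycle genes were also counted on both strands. The E2F motif TTCCCGCC was found in IFT88 (5.82% of all genes), the other E2F form TTTGGCGC in none of the 44 genes (1.2% of all genes), and the CHR motif TTTGAA in IFT80 and TTC8 (14.4% of all genes). A match of letters is a description and not a site. Of the RFX and FOXJ1 regulators, 2 of 9 (22.2%) were lower, a share near the 23.6% of all genes. RFX2 had a log2 CPM of 3.80, 3.76 and 3.54 in shNC and 2.93, 3.18 and 3.17 in shSTIL (log2 fold change -0.61, adjusted p = 0.000285 in limma), and MYB, a factor of multiciliated and of dividing cells, fell by 2.67 on the log2 scale (adjusted p = 2.81e-07 in limma). RFX3, with a log2 fold change of 0.14, did not pass, and FOXJ1, the regulator of motile cilia, had at most 1 read in any library.

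The knockdown reagent can match other transcripts through its seed, the bases 2 to 8 of the guide strand. The hairpin sequence of the lentivirus is not given in the sources used here, and the reagent itself is in doubt, so the 3 siSTIL oligonucleotides of the study were scanned against the 3′ UTRs of 48 of the 49 genes. A 7-base match to siSTIL#2 was found in 6 of the 48 (12.5%) and in 9.26% of 15129 genes, a match to siSTIL#1 in 12.5% and 14.5%, and a match to siSTIL#3 in 8.33% and 12.9%. The guide strand of siSTIL#2 and the 8-base matches in IFT88 (chr13:20691240-20691247) and RPGRIP1L (chr16:53601576-53601583, minus strand) are shown because both genes were lower, a choice made after the values were seen. Capitals mark the seed and its match.
siSTIL#2 guide: uUAAUCCAgagaucacugc
IFT88: atgttaaacctTGGATTAAatatctaacct
RPGRIP1L: tgaaaattactTGGATTAAtgtgttaatct

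TMEM67, with an 8-base match to siSTIL#2 as well, did not pass the test, and neither did BBS4, KIF3B and TMEM231, with 7-base matches. The 8-base matches to siSTIL#1 were in IFT57 and TRAF3IP1, which were lower, and in WDR35, which was higher and also held a 7-base match to siSTIL#3. The 8-base match to siSTIL#3 was in ARL6, which did not pass. The remaining matches had 7 bases, to siSTIL#1 in BBS2, which was higher, and in BBS4 and KIF3B, and to siSTIL#3 in WDR19, which was lower, and in BBS10, which did not pass. Matches of 8 bases to siSTIL#2 were found in 3.31% of all genes. TCTN2, IFT122 and IFT80, which fell by 1.30, 0.76 and 0.65 on the log2 scale, had no match to any of the 3 seeds. Their scanned 3′ UTRs had 690, 80 and 1539 bases, and a UTR as short as that of IFT122 leaves little room for a match. Only the transcript with the longest coding sequence was scanned per gene. The part of seed matches in the values of IFT88, RPGRIP1L or any other gene was not tested.

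The calls differed in how they held when libraries were left out. IFT122, WDR19, IFT74, IFT88, IFT80, TRAF3IP1, TULP3, TCTN1, TCTN2, RPGRIP1L and NPHP4 stayed lower in limma whichever library was left out. Of the 7 higher genes, each lost its call in at least 1 of these fits. Fewer libraries also lowered the calls over all genes, to 15.7% to 17.8% lower and 15% to 17.6% higher.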

How the data were processed

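Total RNA of the 6 EJ libraries was sequenced on the BGISEQ-500. The authors used SOAPnuke to filter reads and Bowtie2 to map them to the transcriptome, estimated counts with RSEM and scaled them to CPM with edgeR. The submitters' processing notes name hg38, and versions are not given in the sources used here. The deposited values are log2 CPM of 15953 genes for the 6 libraries, and estimated counts (expected counts, not normalized) of 15957 genes for 4. Columns were mapped to samples by the sample labels.

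The groups were compared with limma 3.58.1 (eBayes with a mean-variance trend, R 4.3.3) on the log2 CPM of all genes, with Benjamini-Hochberg adjustment, a threshold of 0.01 and no block. Folds are on this log2 scale (prior count 2), which understates changes of genes with few reads. Reads were recovered from the spacing of the log2 CPM, were no farther than 0.000492 from the deposited counts, and were within 0.01 of a whole number in 87.5% to 87.8% of values. They were rounded for edgeR 4.0.16 and DESeq2 1.42.0. RSEM shares reads between similar transcripts, so copies are uncertain. Gene positions and UTRs are those of GENCODE on GRCh38.

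In each complex the up to 3 largest DEGs in each direction are given in every library, IFT88 and both KIF3 chains always, and from each other list the up to 3 largest DEGs. A gene of these lists is not reported here. The members and lists were chosen with earlier results of these data known. Alternatives were the variance trend, normalization, filter, prior count, tool, threshold, omission of each library and a replicate block. Single genes and ratios were compared by an exact two-sided permutation test over 20 labellings.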

Additional observations from a re-analysis of the deposited data

How the results depend on the processing

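None of the 26 DEGs among the 49 genes changed direction under the alternatives, and 9 kept their call under all of them, all lower. Their number was 19 lower and 7 higher. It was 12 and 3 without the variance trend (18.7% lower and 18% higher over all genes), and 9 and 1 when a change beyond 1.2-fold was required with limma treat (11% and 9.77%). With each library left out it was 11 to 13 lower and 1 to 4 higher; each such fit has fewer samples. Other alternatives gave 15 to 23 lower and 5 to 8 higher, among them median centring with 16 and 7 (21.3% and 26.5% over all genes). With only genes of a mean log2 CPM of at least 1 it was 20 and 7, where 33.3% and 32.5% of all 11319 genes were called. At an adjusted p under 0.05 it was 23 and 8 (28% and 28.3% over all genes). Replicate numbers do not pair the libraries (correlations of deviations -0.121, -0.055 and -0.107), and a replicate block gave 15 lower and 5 higher. The median log2 fold change of all genes was 0.0052, 0.018 after quantile normalization and 0.048 after median centring.

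Among genes that did not pass, 9 changed sign. Under median centring the log2 fold change was 0.016 for IFT52, 0.0056 for BBS7, 0.010 for BBS12 and 0.042 for CC2D2A, under quantile normalization 0.028 for BBS12 and 0.060 for CC2D2A, and with DESeq2 0.0022 for CC2D2A. With each library left out in turn it ranged from -0.0097 to 0.045 for IFT140, -0.082 to 0.010 for BBS7, -0.085 to 0.13 for BBS9, -0.12 to 0.070 for BBS12, -0.014 to 0.11 for INPP5E, -0.014 to 0.12 for TMEM231, -0.058 to 0.069 for CC2D2A and -0.45 to 0.20 for B9D2. The cause was not tested. Depth limits B9D2, with 12 to 32 reads per library; every other member had at least 79.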
